A study of Mus musculus with 2 samples.

Results

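A set of 8 genes of the ectodysplasin receptor and NF-kB pathway was followed through both mouse mandibular libraries: the ligand gene Eda, the receptor genes Edar and Tnfrsf19, the adaptor gene Edaradd, the NF-kB subunit genes Relb, Rela and Nfkb1, and the inhibitor gene Nfkbia. They were taken by symbol, and all 8 were among the 27998 genes of the E12.0 table and the 31053 genes of the E9.5 table. The E12.0 library came from mandibular epithelium of K14Cre;R26mT/mG mice, in which Keratin 14-driven Cre switches a reporter to membrane GFP, and only cells with GFP were sorted. The E9.5 library held unsorted cells of whole arches, with epithelium, mesenchyme and endoderm together, from E9.5 mice of the same genotype, K14Cre;R26mT/mG. Littermates were pooled at each stage, and neither group was treated. With 1 library a stage there is no replicate, so every interval below is an exact 95% interval that covers counting error only, and no p-value is given.

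Ectodysplasin is a tumour necrosis factor family ligand of embryonic skin. It binds Edar, which recruits the death-domain adaptor Edaradd and, through TRAF proteins and the IKK kinases, frees NF-kB dimers from their inhibitor IκBα, the product of Nfkbia. Loss of Eda, Edar or Edaradd gives the Tabby, downless and crinkled mice, which have few or misshapen teeth, sparse hair and missing glands. Tnfrsf19, also called Troy, is an Edar-related receptor and a known Wnt target.

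At E12.0, 11355 cells with 200 to 5500 genes and at most 10% mitochondrial UMIs were kept, with a median of 6349 UMIs. At E9.5, 12744 cells were kept, with a median of 13460.5 UMIs, and 44 kept barcodes occurred in both libraries. The epithelial label held at E12.0: Epcam stood at 426.5 CPM (counts scaled to a common UMI total) and the mesenchymal list of 8 genes summed to 9.67 CPM, with more UMIs than the epithelial list in 1 cell. Zones were read by gates on other genes: 258 Shh cells (2 or more UMIs), 1617 Irx1 cells (1 or more), 5107 Cxcl14 cells (3 or more) and 617 Dmrt2 cells (1 or more). Of the Shh cells, 84 also met the Irx1 gate and 74 the Cxcl14 gate. Other genes of tooth signalling centres marked the Shh cells: Dkk4 stood at 56.4 CPM against 1.65 CPM in all other cells and Fgf20 at 23.6 CPM against 0.119 CPM.

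The promoters of Nfkbia, Edar and Eda are shown because Nfkbia and Edar were higher in the Shh cells and Eda was lower. The RefSeq table of build GRCm38.p6 held 6 of the 8 genes, all but Relb and Nfkb1. Each run is the 250 bases before the start, 5′ to 3′ on the strand of the gene. Capitals in Nfkbia mark a match to the NF-kB consensus, read on the opposite strand, and in Edar a match to the LEF/TCF core letters CTTTGA or CTTTGT. Eda held neither. Both strands were searched, and the matches do not overlap. Nfkbia lies at chr12:55492648-55492897 (minus strand), Edar at chr10:58675697-58675946 (minus strand) and Eda at chrX:99975356-99975605 (plus strand).
Nfkbia: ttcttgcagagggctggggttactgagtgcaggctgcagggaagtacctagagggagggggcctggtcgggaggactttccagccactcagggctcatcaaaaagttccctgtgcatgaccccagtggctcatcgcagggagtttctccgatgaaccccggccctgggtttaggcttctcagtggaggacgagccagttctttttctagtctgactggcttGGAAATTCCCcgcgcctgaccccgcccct
Edar: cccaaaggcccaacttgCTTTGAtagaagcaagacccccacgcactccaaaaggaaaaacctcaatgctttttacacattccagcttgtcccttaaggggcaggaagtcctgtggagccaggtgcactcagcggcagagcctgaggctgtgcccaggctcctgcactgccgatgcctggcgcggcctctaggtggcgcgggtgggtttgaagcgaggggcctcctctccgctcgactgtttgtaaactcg
Eda: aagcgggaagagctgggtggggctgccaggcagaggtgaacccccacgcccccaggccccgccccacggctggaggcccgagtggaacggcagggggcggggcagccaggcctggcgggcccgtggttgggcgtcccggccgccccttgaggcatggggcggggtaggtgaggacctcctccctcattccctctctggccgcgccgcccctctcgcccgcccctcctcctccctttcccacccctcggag

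The NF-kB match in Nfkbia lay 29 to 20 bases before the start, and none of the other promoters of these genes in the table held one. Of all 32851 promoters of that length, 7.25% held an NF-kB match and 27.6% a LEF/TCF match. The LEF/TCF match in Edar lay 233 to 228 bases before the start, and Edaradd and 1 of 2 Tnfrsf19 entries held 1 each. A match of letters is a description and does not show a bound site.

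In the Shh cells the receptor genes, Relb and the inhibitor gene were high and the ligand gene was low. Of 7 genes with at least 5 CPM over all E12.0 cells, 3 were higher than in all other cells by 1.5-fold or more on the scale of CPM + 5 (Tnfrsf19, Relb and Nfkbia) and 1 was lower (Eda). Among all 10048 genes tested, 4.94% were higher and 5.36% lower by that fold. The median log2 ratio was 0.47 for the 7 genes and -0.03 for all tested genes. Eda, at 2.89 CPM in Shh cells, met the minimum only through the other cells. Edar, at 3.98 CPM over the library, fell under the minimum and is given by its counts.

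Eda, the ligand gene (chrX:99975606-100400762, plus strand), gave 6 UMIs in the Shh cells, or 2.89 CPM (interval 1.06 to 6.29). In all other cells it gave 1104 UMIs, or 14.6 CPM, so that the Shh cells stood at 0.199 of that level (interval 0.0727 to 0.434). It was 16.4 CPM in Irx1 cells, 12.6 CPM in Cxcl14 cells and 20.4 CPM in Dmrt2 cells, the highest of the gates. Over 8 disjoint classes its order ran from the Dmrt2 class down to the Shh class, and each pair of neighbours in that order had a ratio whose interval held 1. Next to the Shh class, at 3.08 CPM, came the periderm-gated class, at 8.63 CPM (interval 4.60 to 14.8). The 3′ reads cannot separate the ligand isoforms, and 4 annotated genes overlap Eda on its strand.

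Edar, its receptor gene (chr10:58600789-58675654, minus strand), went the other way. It gave 33 UMIs in the Shh cells, or 15.9 CPM (interval 10.9 to 22.3), against 277 UMIs, or 3.65 CPM, in all other cells, a ratio of 4.35 (interval 2.94 to 6.26). Irx1 cells outside the Shh gate held 6.56 CPM, and the Shh cells stood 2.42-fold above those (interval 1.57 to 3.67). Cxcl14 cells held 3.61 CPM and Dmrt2 cells 1.27 CPM, from 6 UMIs. Among Cxcl14 cells those with 24 or more Cxcl14 UMIs held 7.27 CPM (interval 4.94 to 10.3). In the order of its classes, only the step from the Shh class to the Irx1 class had a ratio whose interval left out 1. The 243 cells of the disjoint Shh class carried 10.3% of all Edar UMIs (interval 7.17% to 14.3%) and 2.50% of all UMIs. An Edar UMI was found in 11.2% of Shh cells and 2.55% of all cells; at an equal 4000 UMIs a cell these were 6.40% and 1.40%.

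Edaradd, the adaptor gene (chr13:12472632-12520438, minus strand), differed little between Shh cells and the rest. It stood at 50.6 CPM in Shh cells and 48.5 CPM in all others, a ratio of 1.04 (interval 0.850 to 1.27). Its highest gate was Cxcl14, at 57.7 CPM, and its lowest was Dmrt2, at 34.8 CPM. In periderm-gated cells, which had UMIs of both Grhl3 and Pkp1, it was at 17.9 CPM (interval 11.8 to 26.1), below the next class.

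**Figure D1:**
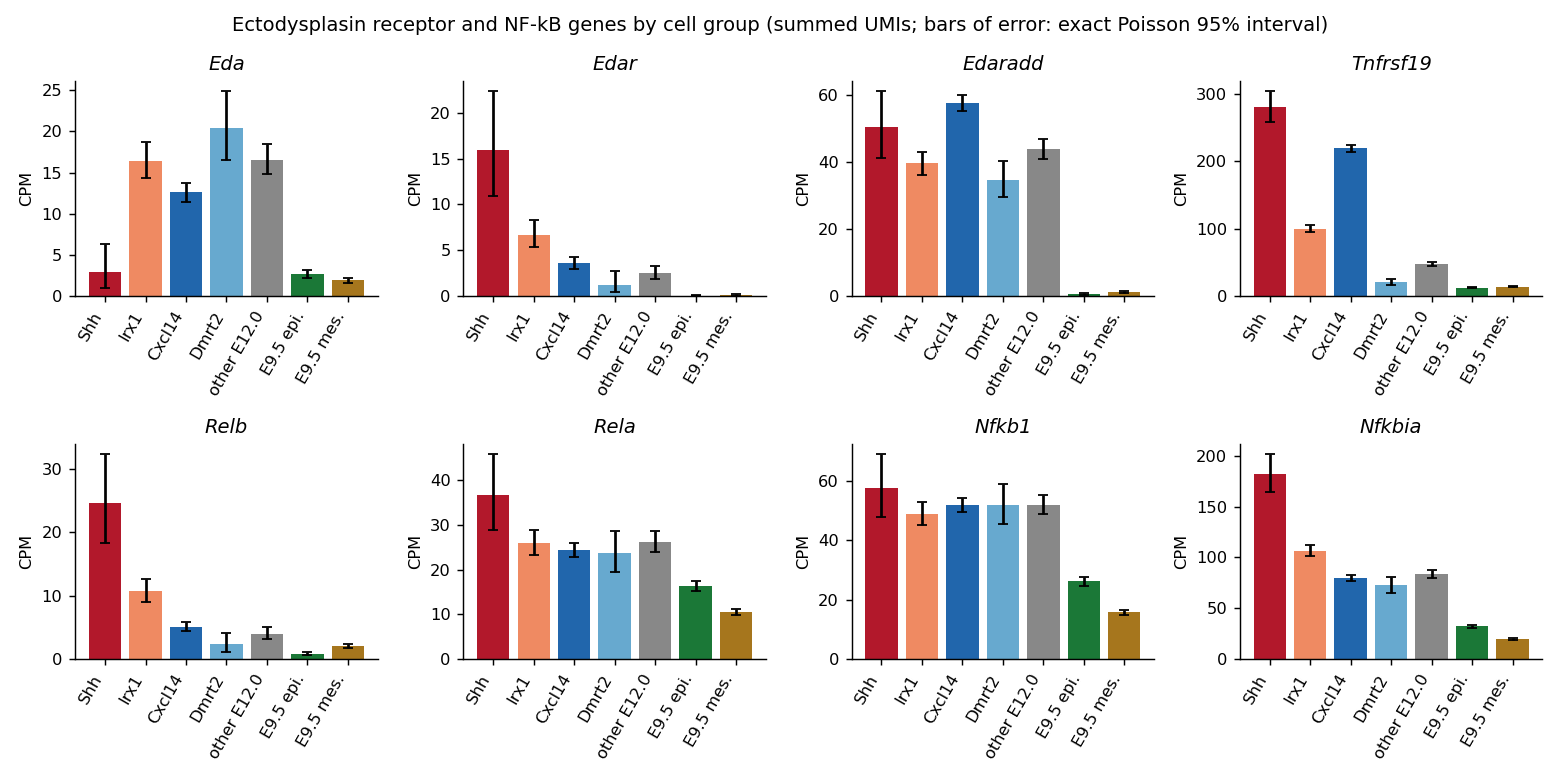
CPM of each gene (y axis, from 0, a scale of its own in each panel) in the 4 gated E12.0 groups, in E12.0 cells outside these and the periderm, Foxa1 or Foxa2 and Col14a1 gates, and in E9.5 epithelium and mesenchyme. Error bars are exact Poisson 95% intervals of the summed UMIs. Edar, Relb and Nfkbia were highest in Shh cells (15.9, 24.6 and 182.5 CPM), where Eda was at 2.89 CPM.

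Tnfrsf19 (chr14:60963875-61046490, minus strand) ranged from 18.8 to 282.8 CPM over the disjoint classes. It was at 280.3 CPM in Shh cells, 219.4 CPM in Cxcl14 cells, 100.0 CPM in Irx1 cells and 21.0 CPM in Dmrt2 cells. In Cxcl14 cells, the anterior zone, it was 4.12-fold higher than in all other cells (interval 3.93 to 4.32), and it was the only 1 of the 7 tested genes past the fold there, where 2.74% of genes were higher and 3.12% lower (median log2 ratio -0.09 for the 7 genes and -0.02 for all tested). Edaradd came next, at 1.43-fold (interval 1.34 to 1.52). In Dmrt2 cells, the posterior zone, Tnfrsf19 was at 0.151 of the level in other cells (interval 0.123 to 0.184) and was again the only 1 of 7 past the fold, with 1.81% of genes higher and 2.82% lower (medians -0.21 and 0.01). Only 0.0299% of tested genes had a lower ratio there.

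The level of Tnfrsf19 went up with Cxcl14 within the gate as well. It was 46.2 CPM in cells with no Cxcl14 UMI, 75.9 CPM at 1 to 2, 150.2 CPM at 3 to 5, 199.0 CPM at 6 to 11, 244.8 CPM at 12 to 23 and 278.8 CPM at 24 or more. With each cell thinned to 4000 UMIs the same bins ran from 46.4 to 291.6 CPM.

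**Figure D2:**
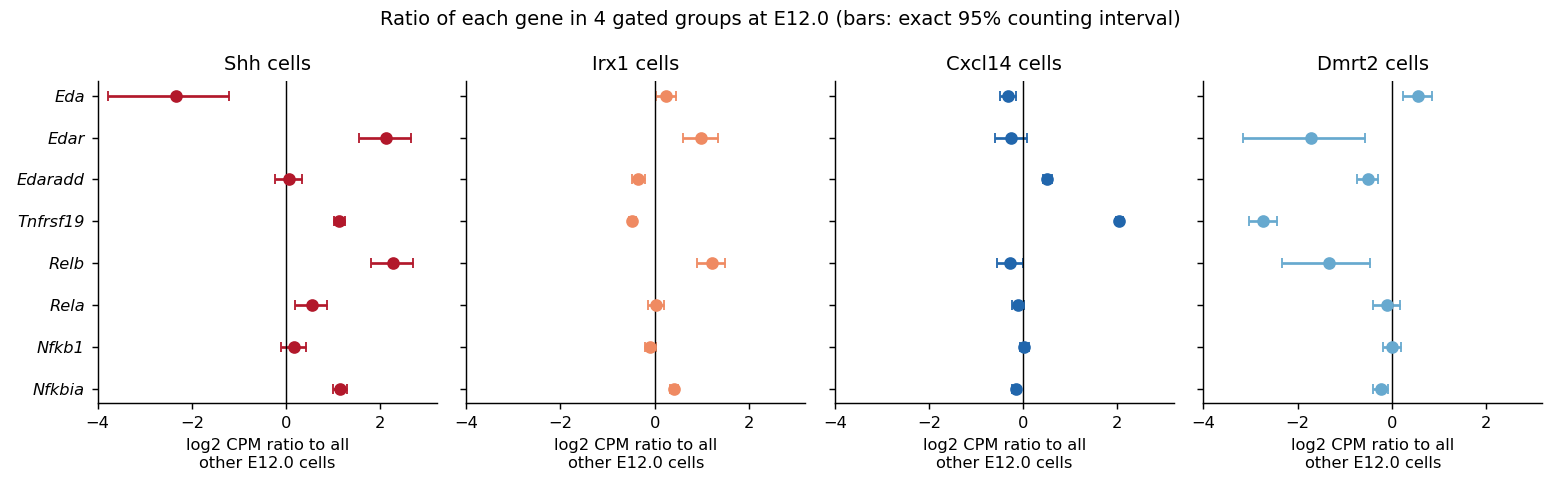
Log2 ratio of CPM in each gated group to all other E12.0 cells (x axis), 1 row a gene, with the exact 95% counting interval and no pseudocount. In the Shh panel the interval of Eda lies left of 0 and those of Edar, Tnfrsf19, Relb, Rela and Nfkbia lie right of it. The intervals of Edaradd and Nfkb1 hold 0. In the Dmrt2 panel Tnfrsf19 is farthest left, at -2.73.

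Relb encodes the NF-kB subunit of the non-canonical pathway (chr7:19606217-19629438, minus strand). It gave 51 UMIs in Shh cells, or 24.6 CPM (interval 18.3 to 32.3), against 5.11 CPM in all other cells, a ratio of 4.80 (interval 3.51 to 6.44). It was 10.0 CPM in Irx1 cells outside the Shh gate, 5.07 CPM in Cxcl14 cells and 2.33 CPM in Dmrt2 cells. In Irx1 cells, the dental zone, it was the 1 of 7 genes past the fold, at 10.7 CPM against 4.61 CPM (ratio 2.31, interval 1.88 to 2.84), where 1.47% of genes were higher and 2.43% lower (medians 0.03 and -0.01). Relb was under 5 CPM outside the gate and met the minimum of 5 CPM through the Irx1 cells, where it was high, so that call is a description of size only. Edar was 1.97-fold higher in those cells (interval 1.52 to 2.53). Over the disjoint classes Relb in the Shh class exceeded the Irx1 class, and the Irx1 class the next, by ratios whose intervals left out 1; all later neighbours in its order had intervals that held 1. Irx1 cells without a Shh UMI still stood at 9.37 CPM of Relb. The Irx1 difference in Relb was a log2 of 0.26 in cells with Xist and no Y-linked UMI, short of the fold, and 0.78 in cells with a Y-linked UMI and no Xist.

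The canonical subunits varied less. Rela (chr19:5637483-5648130, plus strand) was at 36.6 CPM in Shh cells against 25.1 CPM, 1.46-fold (interval 1.15 to 1.84), and at 23.7 to 25.8 CPM in the other gates. Periderm-gated cells held 35.8 CPM of Rela, and the periderm list of 4 genes summed to 475.4 CPM in Shh cells against 205.1 CPM in all others; its part in the Rela difference was not tested. Nfkb1 (chr3:135584655-135691547, minus strand; 1 annotated gene overlaps it on its strand) ranged from 48.9 to 57.8 CPM over the 4 gates. Its Shh ratio of 1.13 had an interval of 0.931 to 1.35.

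Nfkbia (chr12:55489410-55492647, minus strand), the inhibitor gene and itself a textbook NF-kB target, was at 182.5 CPM in Shh cells against 82.0 CPM in all others, 2.23-fold (interval 2.00 to 2.47). It was detected in 64.7% of Shh cells and 38.4% of all cells, and at 4000 UMIs a cell in 44.0% and 26.4%. Irx1 cells outside the Shh gate held 100.4 CPM, Cxcl14 cells 79.8 CPM and Dmrt2 cells 72.9 CPM. The Shh class stood apart from the next class, the periderm-gated cells at 102.2 CPM.

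Nfkbia also answers tissue dissociation in many cell types, so a list of 13 such genes was set beside it. The list summed to 1396 CPM in Shh cells and 1208 CPM in all others. By the same fold 2 of its genes were higher in Shh cells (Junb, at 143.5 against 51.9 CPM, and Atf3, at 162.8 against 45.2 CPM) and 2 were lower (Fos, at 177.7 against 298.6 CPM, and Fosb, at 34.7 against 83.2 CPM). When all cells were ranked by their share of these UMIs and cut into 4 equal bins, Nfkbia in the 38 Shh cells of the lowest bin was at 69.7 CPM (interval 42.6 to 107.7), against 68.9 CPM in the other cells of that bin. In the next bins Shh cells held 156.7, 194.5 and 234.2 CPM, while other cells held 85.4, 84.3 and 89.2 CPM. The difference in Nfkbia was thus not detectable in the lowest bin, which gave 20 UMIs. Relb in that bin rested on 4 UMIs, at 13.9 CPM (interval 3.8 to 35.7) against 5.50 CPM. Edar there rested on 2 UMIs, at 6.97 CPM (interval 0.844 to 25.2) against 3.58 CPM. Tnfrsf19 was at 209.1 CPM (interval 159.6 to 269.2) against 105.3 CPM in the lowest bin, and at 341.9 against 147.4 CPM in the highest. Among cells at or below the median of the list, the log2 ratio of Shh cells to others was 0.63 for Nfkbia and 1.26 for Relb, against 1.11 and 1.55 in all cells. The part of dissociation in these differences was not tested.

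**Figure D3:**
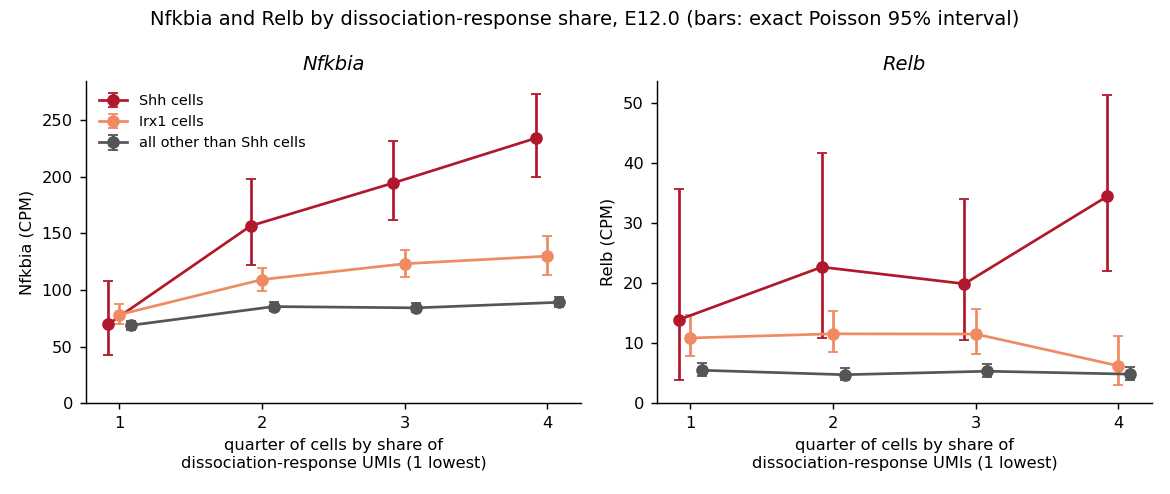
CPM of Nfkbia and Relb (y axes, from 0) by bin (4 of equal size) of E12.0 cells ranked on the share of dissociation-response UMIs (x axis, 1 lowest), in Shh cells, Irx1 cells and all cells other than Shh cells, with exact Poisson 95% intervals. Nfkbia in Shh cells runs from 69.7 to 234.2 CPM and in the cells other than Shh cells from 68.9 to 89.2 CPM.

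Shh cells were not uniform. The 165 with a UMI of Dkk4, Fgf20, Gad1, Sp5 or Proser2 and none of Foxa1 or Foxa2 held 20.9 CPM of Edar, 31.3 CPM of Relb, 222.0 CPM of Nfkbia and 337.5 CPM of Tnfrsf19. The 24 with Foxa1 or Foxa2, which mark the tongue and endoderm side, held 1 Edar UMI and no Relb UMI (3 counts would be 13.9 CPM). They were at 78.8 CPM of Nfkbia and 69.6 CPM of Tnfrsf19, so the first group was 2.82-fold higher in Nfkbia (interval 1.73 to 4.90) and 4.85-fold in Tnfrsf19 (interval 2.91 to 8.74). For Edar that ratio was 4.50, with an interval of 0.744 to 183.9. Edaradd went the other way, at 44.7 CPM in the first group and 83.5 CPM in the second (ratio 0.535, interval 0.312 to 0.964). The other 69 Shh cells, with no UMI of either set, are not given here. Dkk4 and Fgf20 are also on the target list counted below, so the first group was picked in part by pathway targets. Scrublet called 12.4% of Shh cells doublets and 5.82% of all kept cells. Among the 74 Shh cells that also met the Cxcl14 gate it called 32.4%. Without called doublets the log2 ratios on the CPM + 5 scale were 1.38 for Edar, 1.66 for Relb and 1.16 for Nfkbia. The Shh ratio of Tnfrsf19, a log2 of 1.10, moved by more than counting error in 10 of 16 alternative runs. Over these runs it ranged from 0.70 to 1.71.

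Levels moved with the number of Shh UMIs in the cell. Edar went from 3.61 CPM in cells with none to 5.81 CPM at 1, 11.1 CPM at 2 to 3, 14.6 CPM at 4 to 7 and 26.0 CPM at 8 or more. Relb ran 4.93, 14.2, 18.2, 34.6 and 26.0 CPM over the same bins, and the intervals of its last 2 bins overlapped. Eda ran 14.6, 11.0, 3.04, 1.82 and 3.71 CPM.

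**Figure D4:**
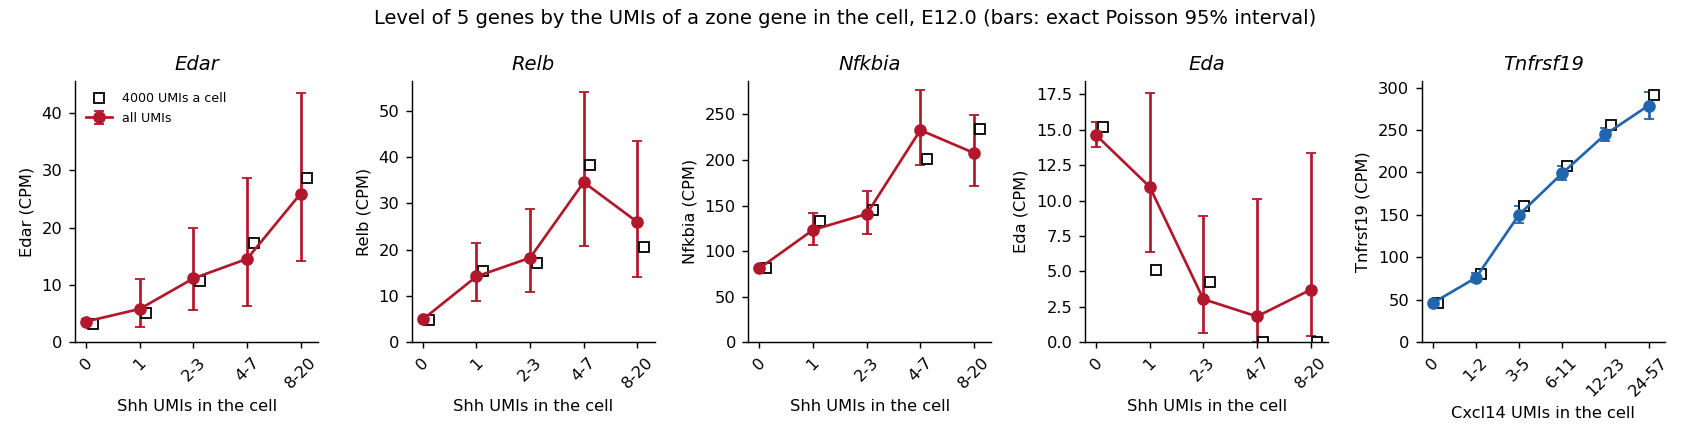
CPM of 5 genes (y axes, from 0) by the UMIs of Shh or Cxcl14 in the cell (x axis, in bins). Filled points with exact Poisson 95% intervals use all UMIs and open squares use 4000 UMIs a cell. Edar runs from 3.61 to 26.0 CPM over the Shh bins and Tnfrsf19 from 46.2 to 278.8 CPM over the Cxcl14 bins.

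Whether the genes were found in the same cells was read at 4000 UMIs a cell, in 10439 cells, as cells with both over the number expected from the product of both shares. Of 26 pairs with 10 or more cells expected, 5 were above 1 and 2 below 1 by their interval. Relb and Nfkbia were found together in 102 cells, 1.82-fold the expected 56.0 (interval 1.49 to 2.21). Edar and Tnfrsf19 met in 74 cells, 1.45-fold (interval 1.14 to 1.82). The ligand and Tnfrsf19 met less often than expected, at 0.783 (interval 0.666 to 0.916). Eda and Edar met in 6 cells, with 7.90 expected. Edar and Relb met in 7 cells, with 2.97 expected and an interval of 0.949 to 4.86. Inside the gates the pair of Relb and Nfkbia stayed above 1 in Irx1 cells and in Cxcl14 cells. In Cxcl14 cells Edar and Tnfrsf19 also stayed above 1, at 1.43 (interval 1.06 to 1.89). Edaradd and Relb stayed below 1 there, at 0.534 (interval 0.256 to 0.981). No pair had an interval that left out 1 among Shh cells or Dmrt2 cells. Among 250 Shh cells Relb and Nfkbia met in 14, with 10.1 expected (ratio 1.38, interval 0.765 to 2.28).

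**Figure D5:**
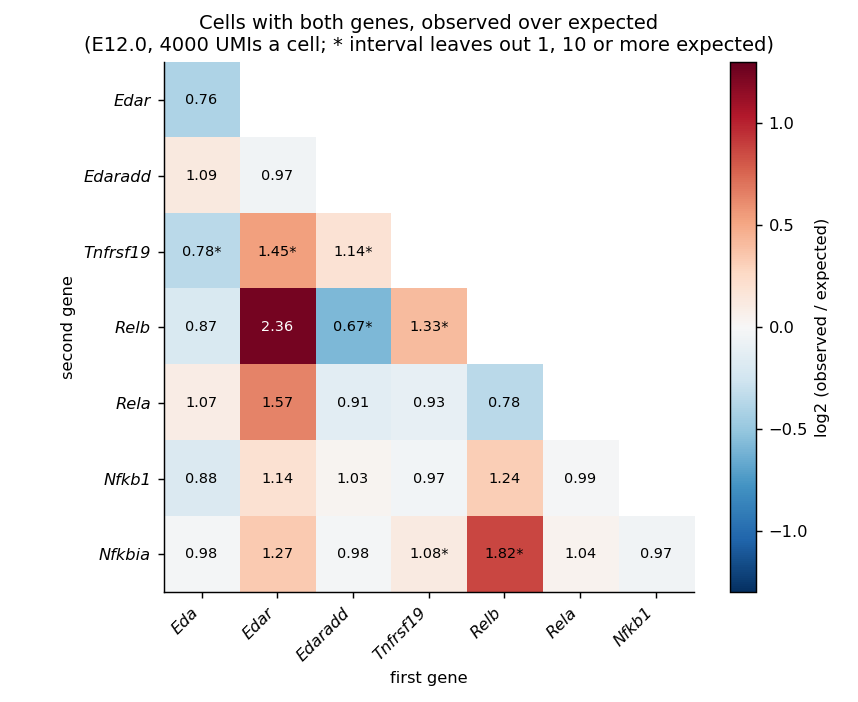
Cells with a UMI of both genes over the number expected, for every pair at E12.0 with each cell thinned to 4000 UMIs; colour is the log2 of the printed ratio. Asterisks mark pairs with 10 or more cells expected whose exact 95% interval leaves out 1, from 0.67 for Edaradd and Relb to 1.82 for Relb and Nfkbia.

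The rest of the pathway was counted on lists of 45 genes, of which 26 passed the minimum at E12.0. In Shh cells 6 of the 26 were higher and none lower, with a median log2 ratio of 0.26, beside the 4.94% and 5.36% of all genes. They were Traf3, a signalling adaptor, at 80.9 against 45.6 CPM, the receptor gene Tnfrsf12a at 27.5 against 14.1 CPM, and 4 of 6 genes on the target list. Those were Wnt10a at 91.0 against 14.3 CPM, Wnt10b at 25 against 4.61 CPM, the receptor gene Lrp4 at 74.2 against 25.9 CPM, and the adhesion gene Icam1 at 24.1 against 13.4 CPM. Wnt10b met the minimum only through the group where it was high, here and in the Cxcl14 and Dmrt2 comparisons. Below the minimum, Nfkb2, whose product pairs with RelB, gave 31 UMIs in Shh cells, 4.07-fold other cells (interval 2.72 to 5.92). Ltb, a lymphotoxin gene on the target list, gave 34 UMIs, 19.1-fold (interval 12.2 to 29.4), and Tnfaip3, a feedback inhibitor, gave 16, 5.27-fold (interval 2.91 to 8.94). Nfkb2, Ltb and Tnfaip3 were picked after their values were seen, so they describe size only. The other pathway genes below the minimum are not given. None of the 15 adaptors and kinases tested was past the fold in Irx1, Cxcl14 or Dmrt2 cells. Few of all genes were either: 1.47%, 2.74% and 1.81% were higher there and 2.43%, 3.12% and 2.82% lower. In Dmrt2 cells 4 of 6 target genes were lower (Wnt10a, Wnt10b, Ccnd1 and Icam1), beside 2.82% of all genes. In Irx1 cells 1 of the 6 was higher, Ccnd1, a cell cycle gene, at 271.8 against 150.4 CPM, beside 1.47% of all genes. In Cxcl14 cells 2 of the 6 were higher, Wnt10a and Wnt10b, beside 2.74% of all genes. At E9.5 none of 22 tested pathway genes passed the fold between epithelium and mesenchyme, beside 12.4% of all genes higher and 4.99% lower. Dkk4 and Fgf20, on the target list as well, had served to check the Shh gate and to split the Shh cells.

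Over the 8 disjoint E12.0 classes, and among genes with at least 20 CPM in 1 of them, the pattern most like Edar was that of Relb, with a Pearson r of 0.98 of log2(CPM + 5). Cdc73, Nampt, Rpl6l and Slc35b1 followed, at 0.97 to 0.98. Relb was most like Cdc73, Nampt, Slc35b1, Ppp1r37 and Csnk2a2, and Nfkbia was most like Ascl4 (2.50 CPM in the Cxcl14 class and 36.9 CPM in the Shh class), Sp6 (7.86 and 175.5 CPM), A430106G13Rik, Orai2 and Ctnnb1. The 8 points share 1 library, so these values describe it and no more. Relb reached 20 CPM only in the Shh class, at 25.7 CPM, where Edar was highest too, at 16.4 CPM. Its place beside Edar was thus let in by that class and is a description only. Eda and Edar were at -0.73.

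At E9.5 the ligand, its receptor and its adaptor were barely detected. The 3405 epithelial cells had 2 or more Epcam UMIs and more epithelial than mesenchymal UMIs. Of these, 532 had a UMI of Foxa2 or Pax1, genes of the endoderm, so the group is mixed. All 3405 gave 1 Edar UMI in 45646446. The 5283 mesenchymal cells gave 12, each in a cell of its own (0.227% of cells). Edaradd gave 33 UMIs in the epithelium, or 0.723 CPM, and 1.37 CPM in the mesenchyme. Eda stood at 2.72 and 1.95 CPM, 1.39-fold (interval 1.09 to 1.77). A UMI of Eda was found in 3.38% of epithelial cells (interval 2.80% to 4.04%), in 11 of 367 endothelial-gated cells (interval 1.51% to 5.30%) and in 3 of 102 blood-gated cells, or 2.94%. Edaradd was found in 0.940% of epithelial cells, 2.72% of endothelial-gated cells and none of the blood-gated cells, which allows a share of up to 2.94% (3 counts). The median depths of these groups were 12916, 14508 and 15606.5 UMIs. Neither epithelial share was above the endothelial one beyond counting error. Whether endothelial cells lack these transcripts was not tested, so this comparison cannot decide if the epithelium expressed them. Neither share is read as expression or as its absence. In CPM their Edaradd was 2.79-fold the epithelial level (interval 1.27 to 5.65). Edar gave no UMI in the endothelial-gated cells, which allows a share of cells with a UMI of up to 0.817% (3 counts of 367 cells). At E12.0 no group of cells other than epithelium was there to set such a background.

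Of 4 genes past the minimum at E9.5, 2 were higher in epithelium than in mesenchyme: Nfkb1, at 26.2 against 15.7 CPM (1.67-fold, interval 1.54 to 1.81), and Nfkbia, at 32.2 against 19.5 CPM (1.65-fold, interval 1.54 to 1.77). Among all 9261 genes, 12.4% were higher and 4.99% lower, and the median log2 ratio was 0.53 for the 4 genes and 0.08 for all. Rela was 1.55-fold higher (interval 1.41 to 1.72), short of the fold with the added 5 CPM, and Tnfrsf19 was near equal, at 12.8 against 14.3 CPM. Relb went the other way, from 39 UMIs, or 0.854 CPM, in epithelium to 2.05 CPM in mesenchyme and 4.58 CPM in endothelial-gated cells. The mesenchymal list summed to 126.3 CPM in the epithelial cells and 1496 CPM in the mesenchyme.

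Between the stages, 5 of 6 tested genes were higher in the E12.0 epithelium and none lower, where 27.4% of 10014 genes were higher and 12.3% lower. Edaradd and Eda, under 5 CPM at E9.5, met the minimum only through the E12.0 cells, so their calls are descriptions of size. No group known to lack their transcripts set a background at E9.5, and the sizes of their ratios depend on that background. Edaradd was at 48.6 CPM against 0.723 CPM, 67.2-fold (interval 47.8 to 97.8). Tnfrsf19 was 10.3-fold higher (131.9 against 12.8 CPM, interval 9.47 to 11.2), Eda 5.24-fold (interval 4.35 to 6.36), Nfkbia 2.63-fold (interval 2.48 to 2.78) and Nfkb1 1.96-fold (interval 1.84 to 2.10). Edar, under the minimum, went from 1 UMI to 310, a ratio of 181.6 with an interval of 32.3 to 7194, and Relb from 0.854 to 5.63 CPM. Rela, at 16.3 and 25.4 CPM, did not pass the fold. The median log2 ratio was 1.29 for the 6 genes and 0.18 for all tested genes. After division by the latter the same 5 genes stayed past the fold. With it the share of calls that were higher went from 69.1% to 51.7%. The median of the 6 and the 5 that stayed take in Edaradd and Eda, so they too describe size only. Of 26 tested pathway genes 14 were higher and none lower, among them the IKK kinase genes Ikbkb (48.2 against 24.8 CPM) and Chuk (43.8 against 17.9 CPM); Wnt10a, Icam1 and Rel among the 14 met the minimum only through E12.0. The dissociation list summed to 1213 CPM at E12.0 and 303.0 CPM in E9.5 epithelium. Stage cannot be told apart here from the sort, the dissociation protocol, the depth, the gene list and the Cell Ranger version. The E9.5 epithelium in this comparison still held its cells with Foxa2 or Pax1.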

How the data were processed

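Mandibular arches of K14Cre;R26mT/mG mouse embryos were profiled by 10x Genomics 3′ V3 single-cell RNA-seq, 1 library at E12.0 (GFP-sorted epithelium) and 1 at E9.5 (whole arch). The deposited files are gene-by-barcode tables of UMI counts, made by the authors with Cell Ranger. The submitters' processing notes name Cell Ranger 2.0.0, the matrix headers 3.1.0 (E12.0) and 6.1.2 (E9.5), and the builds mm10 and GRCm38. The 8 genes, the lists and the gates were chosen with earlier results of these data known.

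Cells with 200 to 5500 genes and at most 10% mitochondrial UMIs were kept, at a median of 6349 and 13460.5 UMIs. Groups were gated on UMIs and their counts summed to CPM. E9.5 epithelium (2 or more Epcam UMIs and more epithelial than mesenchymal UMIs) is a definition made here. It leaves in cells with a UMI of Foxa2 or Pax1, genes of the endoderm. Mesenchymal, endothelial and blood cells had no Epcam UMI, 5 or more UMIs of their own marker list and more of it than of the other lists. Genes with 5 CPM over both groups were called past 1.5-fold of CPM + 5. With 1 library a group no test was run: intervals are exact (Poisson, conditional binomial for ratios, Clopper-Pearson for shares), at 95%. Shares and pairs were also read at 4000 UMIs a cell, drawn with a fixed seed, which left out 916 E12.0 and 1715 E9.5 cells. Scrublet, run through scanpy 1.11.5, called 661 of 11355 E12.0 cells and 331 of 12744 E9.5 cells doublets; these stayed in. Named genes are the 8, the pathway genes past the fold, marker and dissociation genes, and the 5 most like Edar, Relb and Nfkbia. The pathway genes named below 5 CPM, and the minimum of 10 expected cells a pair, were chosen after their values were seen. Gates, filters, scaling, pseudocount and fold were varied. Gene positions are from GENCODE M21 on GRCm38. Scripts were tested on simulated data. Python 3.11.15, numpy 2.4.6, scipy 1.17.1 and pandas 2.3.3 were used.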

Additional observations from a re-analysis of the deposited data

How the results depend on the processing

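No paired analysis was possible because each stage has 1 library, and no replicate could be left out. Of the 4 genes past the fold in Shh cells, at least 20 CPM left 2 (Tnfrsf19 and Nfkbia), and every other alternative run gave 4 or 5. The choices of Shh cells without Foxa1 or Foxa2, against all other cells (4 genes) or against Irx1 cells (5 genes), were added after seeing the data. The single gene in Irx1 cells became 2 with cells of 1 gate, against the other gates and without called doublets, 3 at 1.3-fold, and 0 in cells with Xist, at 2-fold and at 20 CPM. That in Cxcl14 cells became 2 at 5% mitochondrial UMIs and at 1.3-fold. That in Dmrt2 cells became 2 with stricter gates, 1 gate only, the other gates, equal weight of cells, 5% mitochondrial UMIs, Y-linked cells and a pseudocount of 1 CPM, 3 without doublets and without mitochondrial and ribosomal genes, and 4 at 1.3-fold. The 2 at E9.5 became 1 with Epcam at 1 UMI, without Foxa2 or Pax1 cells, without the upper gene limit and at 20 CPM, and 0 at 2-fold. The 5 between stages ranged from 4 to 7. Shares of all genes past the fold at these settings are not given. The counts therefore do not tell a change in these genes from one in all genes. Pairs whose interval left out 1, 7 as reported, were 14 without thinning and 6 at 6000 UMIs. Within gates they were 0 in 250 Shh, 1 in 1578 Irx1, 3 in 4818 Cxcl14 and 0 in 584 Dmrt2 cells. Of 680 recomputed values of single genes, 531 moved by less than counting error and 149 by more. None past the fold changed sign, while 22 values whose reported log2 ratio was at most 0.16 in size did, such as Edaradd in Shh cells (0.05, and -0.34 in cells with Xist). The cause was not tested for any of these changes. Depth limits Edar and Relb most, with 310 and 439 UMIs at E12.0.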
